A study of Homo sapiens with 6 samples.

Results

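The genes described here are those of the MHC class II pathway: the alpha and beta chains HLA-DRA, HLA-DRB1, HLA-DPA1, HLA-DPB1, HLA-DQA1 and HLA-DQB1, the peptide editor chains HLA-DMA and HLA-DMB, the invariant chain CD74 and the transactivator CIITA. They were chosen by gene symbol, and 8 of these 10 genes had a row among the 34675 rows of the deposited table. HLA-DPA1 and HLA-DPB1 had no row in the table used here, so their levels were not analysed here. U2932 is an established human line grown from a diffuse large B cell lymphoma. Its RNA was sequenced after infection with a hairpin against PRDM11 (3 samples, plasmid TRCN0000358536) or with a scrambled hairpin (3 samples, plasmid pLKO-puro-scramble), and both groups went through 3 days of puromycin selection. Each group thus rests on 1 hairpin sequence in 1 cell line, and no label names separate cultures, so p-values here measure only how these samples spread, which may be technical. The table names its groups only condition A and condition B, and no header or label says which is the knockdown. Differences are therefore given as condition A over condition B.

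MHC class II molecules are pairs of an alpha and a beta chain that carry peptides from the endosome to the cell surface, where CD4+ T cells read them. B cells make them constitutively, with CIITA as the coactivator that their promoters need, CD74 as the chaperone that fills the groove until proteases remove it, and HLA-DM as the editor that loads the peptide. The factors RFX, CREB and NF-Y bind the X and Y boxes of these promoters and recruit CIITA.

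The authors' means are in normalised reads, that is, read counts divided by a size factor for each library. Their sum over all rows was 43812481 for condition A and 41847907 for condition B. Whole reads of the 3 libraries behind each mean were recovered by an integer search for genes with a mean up to 10000, which took in 7 of the 8 genes but not CD74. The libraries are numbered by falling size factor (A1 to A3, B1 to B3), and these numbers match no replicate of the labels. Libraries A3 and B1 stood apart from the other libraries of their condition. Among 12581 recovered rows with a mean of at least 50, A3 was the highest library of condition A in 42.4% and the lowest in 43.2%, and B1 was the highest of condition B in 43.9% and the lowest in 41.4%. Both were highest in 28.4% of these rows, with HLA-DQA1, HLA-DQB1 and HLA-DMA among them. Both were lowest in 27.1%, with HLA-DRA among them. Whether A3 and B1 share a cause was not tested. PRDM11, the targeted gene, had 268, 272 and 323 normalised reads in condition A and 565, 516 and 545 in condition B (log2 ratio -0.91, adjusted p = 1.76e-08 by DESeq in the authors' deposited table). B cell markers were high, such as MS4A1 with means of 84146 and 71390.5 and BLK with 9295 and 8718, for conditions A and B. Of 21 listed markers of dendritic, monocyte and T or NK cells 14 had a row, and their summed levels were 115, 69.8 and 101 in condition A and 123, 58.9 and 116 in condition B.

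HLA-DQA1 and HLA-DQB1, whose products pair to form the DQ molecule, were both lower in condition A. They were the 2 of 8 genes that passed at an adjusted p under 0.05 by DESeq in the authors' deposited table, where 2.54% of all 34675 rows passed (0.966% higher and 1.57% lower in condition A), and 6.04% of rows with a mean of at least 50. The other 4 HLA genes and CD74 and CIITA did not pass. Of the 7 genes with a mean of at least 10, 5 had a log2 ratio below 0 and the median was -0.42, against a median of -0.0033 and 50.5% below 0 over the 17613 rows with such a mean. The 5 below 0 were the HLA genes, and the 2 above 0 were CD74 and CIITA, the members that lie outside chromosome 6.

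HLA-DQA1 (ENSG00000196735) is coded on chromosome 6 (build hg19) between 32605236 and 32610758, in 6 blocks. Its libraries held 103, 95.6 and 138 normalised reads in condition A and 224, 196 and 160 in condition B. Every library of condition A lay below every library of condition B, with A3 nearest to B3. In the authors' deposited table the means were 112 and 193, which gives a log2 ratio of -0.79, and the p-value implies a standard error (SE) of 0.21 (DESeq adjusted p = 0.00974). HLA-DQB1 (ENSG00000179344, chromosome 6, 32628016 to 32634384, 6 blocks) held 106, 96.5 and 165 normalised reads in condition A and 199.8, 199 and 183 in condition B. Here too the groups did not overlap, and the libraries of condition B lay close together (SD 9.45) while A3 stood above A1 and A2 (SD of condition A 37.3). The deposited means of HLA-DQB1 were 123 and 194, a log2 ratio of -0.66 with an implied SE of 0.19 (adjusted p = 0.0254 by DESeq in the authors' deposited table). The raw reads behind these values were 98 to 128 per library for both genes in condition A and 152 to 244 in condition B. HLA-DQB1-AS1, the antisense gene that overlaps HLA-DQB1, had means of 2.19 and 3.09, and whether the counting used strand is not given in the sources used here.

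A limma test of the recovered normalised reads (log2 of reads plus 1) was run over 16629 rows with a mean of at least 10, of which 9.23% were called. It called HLA-DQA1 with an adjusted p of 0.0215 and HLA-DQB1 with 0.0424. With 1 library left out, the limma adjusted p ran from 0.00252 to 0.0968 for HLA-DQA1 and from 0.000986 to 0.155 for HLA-DQB1. HLA-DQA1 lost its call without A2 (0.0968), B1 (0.0681) or B2 (0.0925), and HLA-DQB1 without A1 (0.0646), A2 (0.155), B1 (0.099), B2 (0.144) or B3 (0.108). The share of all rows called changed with these fits as well, from 9.23% to 13.1% without A1, 2.33% without A2, 9.73% without A3, 6.26% without B1, 2.21% without B2 and 2.33% without B3. Without both A3 and B1, an alternative added after the data were seen, the log2 ratios were -0.85 for HLA-DQA1 and -0.92 for HLA-DQB1, with limma adjusted p of 0.000225 and 4.98e-05, in a test that called 25.6% of rows. These libraries were left out because they stood apart, so a smaller spread follows from the choice.

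**Figure D1:**
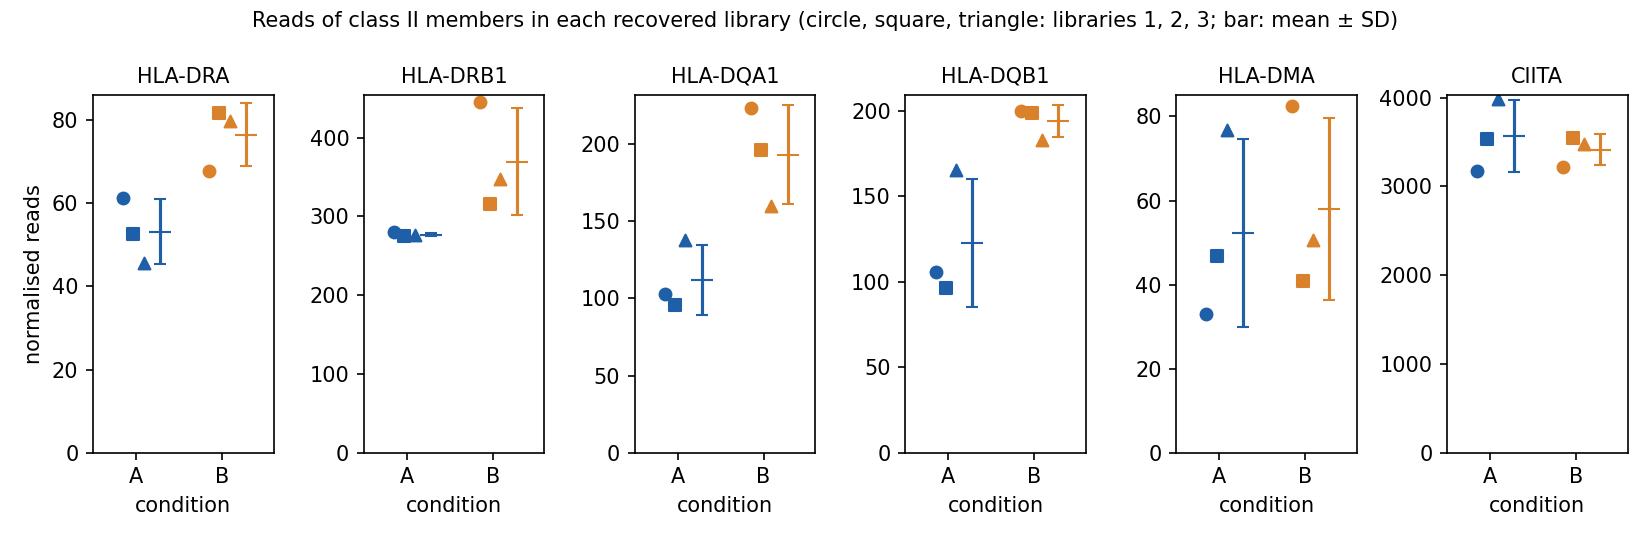
Normalised reads (vertical axis, from 0) of HLA-DRA, HLA-DRB1, HLA-DQA1, HLA-DQB1, HLA-DMA and CIITA in the 3 recovered libraries of condition A (blue) and of condition B (orange), with circles, squares and triangles for libraries 1, 2 and 3 and bars for the mean ± SD. The conditions do not overlap in the first 4 genes and do in HLA-DMA and CIITA, and A3 and B1 sit at the edge of their group in most panels.

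Class II promoters are described as holding an X box and a Y box a fixed distance apart. The stretch around the matches is shown because CIITA acts through these boxes. Sequences are from RefSeq (GRCh38.p14), where 8 of the 10 genes had an entry, reaching from 250 bases before the start site to 50 after it. An X box core of 11 letters, 3 of them free, and a Y box core (ATTGG, the inverse of CCAAT) were searched on both strands, and these cores do not overlap each other. The X core was in 0.816%, the Y core in 34.6% and both in 0.287% of 34796 promoters of the same length. HLA-DQB1, HLA-DRB1 and HLA-DMA held both, with the Y core 22, 22 and 23 bases after the X core. HLA-DMB held both 55 bases apart, but with the Y core in the opposite direction (CCAAT). HLA-DQA1, HLA-DPB1 and CD74 held the Y core but not these letters of the X core, and HLA-DPA1 held neither core in either of its entries. The arrangement was thus not found with these cores in all class II promoters searched. In the sequences below, all upstream of the start site and written on the gene's strand, capitals mark the matches to the cores.
HLA-DQB1 (chr6:32666733-32666786, minus strand): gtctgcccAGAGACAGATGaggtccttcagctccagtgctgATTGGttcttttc
HLA-DRB1 (chr6:32589882-32589935, minus strand): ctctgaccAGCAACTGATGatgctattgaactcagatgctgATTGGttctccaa
HLA-DMA (chr6:32953164-32953218, minus strand): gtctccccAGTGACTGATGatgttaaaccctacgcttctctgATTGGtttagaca
HLA-DQA1 (chr6:32637290-32637350, plus strand): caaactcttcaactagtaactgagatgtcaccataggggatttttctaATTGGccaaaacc
CD74 (chr5:150412951-150413011, minus strand): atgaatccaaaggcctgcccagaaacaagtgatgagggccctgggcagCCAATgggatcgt
Whether these boxes bear on the differences between the conditions was not tested. A match is a description of the letters and not a measured binding site.

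HLA-DRA and HLA-DRB1, the chains of the DR molecule, had lower means in condition A but did not pass the test. HLA-DRA (ENSG00000204287, chromosome 6, 32407728 to 32411684, 4 blocks) held 61.2, 52.7 and 45.5 normalised reads in condition A and 67.8, 81.9 and 79.9 in condition B. The groups did not overlap, with A1 and B1 nearest to each other. The log2 ratio was -0.53 with an implied SE of 0.25 and a 95% interval from -1.02 to -0.03 (adjusted p = 0.439 by DESeq in the authors' deposited table). HLA-DRB1 (ENSG00000196126, chromosome 6, 32546871 to 32557519, 6 blocks) held 279.6, 275 and 276 normalised reads in condition A (coefficient of variation 0.87%) and 445, 316 and 347 in condition B. The raw reads in condition A were 338, 282 and 212, whose counting error alone is larger than this variation. Its closeness within condition A is thus no measure of precision. The groups of HLA-DRB1 did not overlap either, and B1 stood well above B2 and B3. The log2 ratio was -0.42 with an implied SE of 0.17 and an interval from -0.76 to -0.08 (adjusted p = 0.282 by DESeq in the authors' deposited table). Without A3 and B1 the log2 ratio of HLA-DRB1 was -0.26 and that of HLA-DRA -0.51. The limma adjusted p was 0.081 for both genes, and with 1 library left out that of HLA-DRA was 0.0496 without A1 and 0.0811 to 0.249 in the other 5 fits.

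HLA-DRB5, another DR beta gene that some haplotypes carry beside HLA-DRB1, did not pass the test. It held 332, 334 and 432 normalised reads in condition A and 551, 402 and 448 in condition B, and these groups overlapped. Its log2 ratio was -0.35 (adjusted p = 0.492 by DESeq in the authors' deposited table). DR beta genes are alike in sequence, and how reads matching several genes were counted is not given. Counts of HLA-DRB1 and HLA-DRB5 may thus be mixed or incomplete, and the same holds for other class II genes and their near copies. Among the 6 genes with recovered reads and a mean of at least 50, 4 (HLA-DRA, HLA-DRB1, HLA-DQA1 and HLA-DQB1) had condition A below condition B without overlap. Over all 12581 such rows 34.3% did not overlap, 18.6% with condition A below.

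HLA-DMA and HLA-DMB, the chains of the peptide editor, were low in both conditions. HLA-DMA (ENSG00000204257, chromosome 6, 32916644 to 32920813, 6 blocks) held 33.1, 46.8 and 76.8 normalised reads in condition A and 82.5, 40.9 and 50.5 in condition B. The groups overlapped, and the spread within each condition (SD 22.3 and 21.8) was larger than the difference of the means, 52.2 and 58.0. Its log2 ratio was -0.15 with an interval from -0.72 to 0.42 (adjusted p = 1 by DESeq in the authors' deposited table). HLA-DMB (ENSG00000242574, chromosome 6, 32902751 to 32908584, 6 blocks) had 0 reads in each library of condition A and 0, 1 and 3 reads in condition B. No fold is given, since both conditions lie at or under a floor of 3 reads per library.

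CD74, the invariant chain, had a mean of 147738 normalised reads for condition A and 107833 for condition B, as the authors' deposited table gives them, far above the rest of the group. The log2 ratio was 0.45 with an implied SE of 0.32 and a 95% interval from -0.17 to 1.08 (DESeq adjusted p = 0.865), so neither no difference nor a 2-fold rise lies outside the interval. CD74 (ENSG00000019582) is coded on chromosome 5 between 149781553 and 149792312, in 10 blocks, and no reads per library were recovered at this level. CIITA (ENSG00000179583, chromosome 16, 10971188 to 11017157, 20 blocks) held 3176, 3540.1 and 3990.1 normalised reads in condition A and 3219, 3545 and 3484 in condition B. Its groups overlapped fully, since all 3 libraries of condition B lie within the range of condition A. The log2 ratio was 0.063 with an interval from -0.29 to 0.42 (adjusted p = 1 by DESeq in the authors' deposited table), and it was -0.066 without A3 and B1. The 95% interval of HLA-DQA1 (-1.19 to -0.38) lay wholly below that of CIITA and those of the other HLA genes overlapped it, HLA-DQB1 only at its edge (upper bound -0.29), but the difference between the ratios of genes was not tested.

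**Figure D2:**
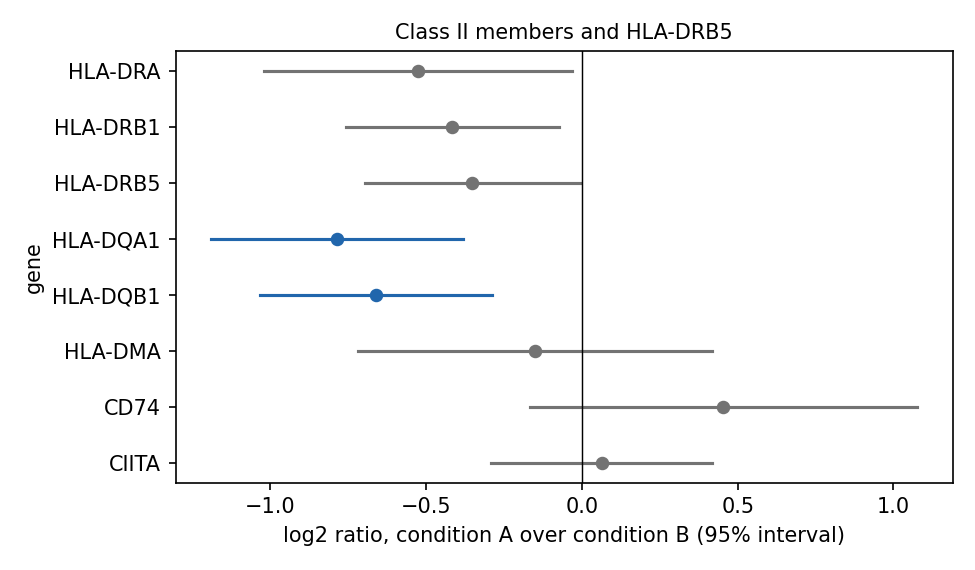
Log2 ratio of condition A over condition B (horizontal axis) for 7 class II genes and HLA-DRB5, with 95% intervals from the standard error implied by the deposited p-value, blue for genes called lower in condition A and grey for genes not called. The 6 HLA genes lie below 0, of which HLA-DQA1 at -0.79 and HLA-DQB1 at -0.66 were called, and CD74 at 0.45 and CIITA at 0.063 lie above 0.

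Levels between the genes were set side by side per kilobase of coding length. CD74 had 149835 normalised reads per coding kilobase for condition A and 109364 for condition B, and CIITA 1028 and 984. The highest HLA gene of the group, HLA-DRB1, had 347 and 463, followed by HLA-DQB1 with 152 and 240.3, HLA-DQA1 with 129.8 and 224, HLA-DRA with 69.7 and 100.4 and HLA-DMA with 54.3 and 60.3. In both conditions the libraries of HLA-DQA1 and HLA-DQB1 overlapped per coding kilobase, so the order of these neighbours is not beyond their spread, and the same held for HLA-DRA and HLA-DMA in condition A. All 6 HLA genes together had 753 per coding kilobase for condition A and 1091 for condition B, and CD74 was 199-fold and 100.3-fold above their sum. Their summed normalised reads were 582, 567 and 701 in A1 to A3 and 1019, 835 and 824 in B1 to B3.

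These HLA levels are those of a region in which few reads were counted. From HLA-F to KIFC1, in the gene order of GENCODE 29, lie 153 protein-coding genes, and 34 (22.2%) had a row. Of all other protein-coding genes 82.8% had a row, as did 89.5% of the next 153 genes after KIFC1 and 55.6% of the 153 before HLA-F. A mean of at least 1000 was reached by 1 of the 153 genes, against 48.4% of the 153 after KIFC1. Genes without a role in antigen presentation were near 0 as well, such as RING1, a Polycomb subunit, and KIFC1, a mitotic kinesin, at 0.16 each, DAXX, a histone chaperone, at 0.87, and MDC1, of the DNA damage response, at 0.94. BRD2, a bromodomain protein, was at 59.4. These 5 genes were picked after their values were seen. BAK1, which lies just beyond the region, was at 992. The counted reads of HLA genes may thus be a small part of their transcripts. How far the differences in the counted reads hold for the whole of their RNA was not tested, and fewer cells expressing a gene cannot be told apart from less RNA per cell.

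The other genes of this region did not move uniformly. Of the 10 that are not class II genes and had a mean of at least 10, 8 had a log2 ratio below 0, with a median of -0.15 and a range from -0.58 (TAP2) to 0.55 (PPP1R11), and 0 were called. The 6 class II genes with such a mean, HLA-DRB5 among them, had a median of -0.47. The class I genes HLA-B and HLA-C had log2 ratios of -0.15 and -0.36, and B2M, their common light chain encoded on another chromosome, had means of 29655 and 29657. Relative to the median of the 10 other genes, a centring added after the data were seen, HLA-DQA1 stood at -0.64 and HLA-DQB1 at -0.52.

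**Figure D3:**
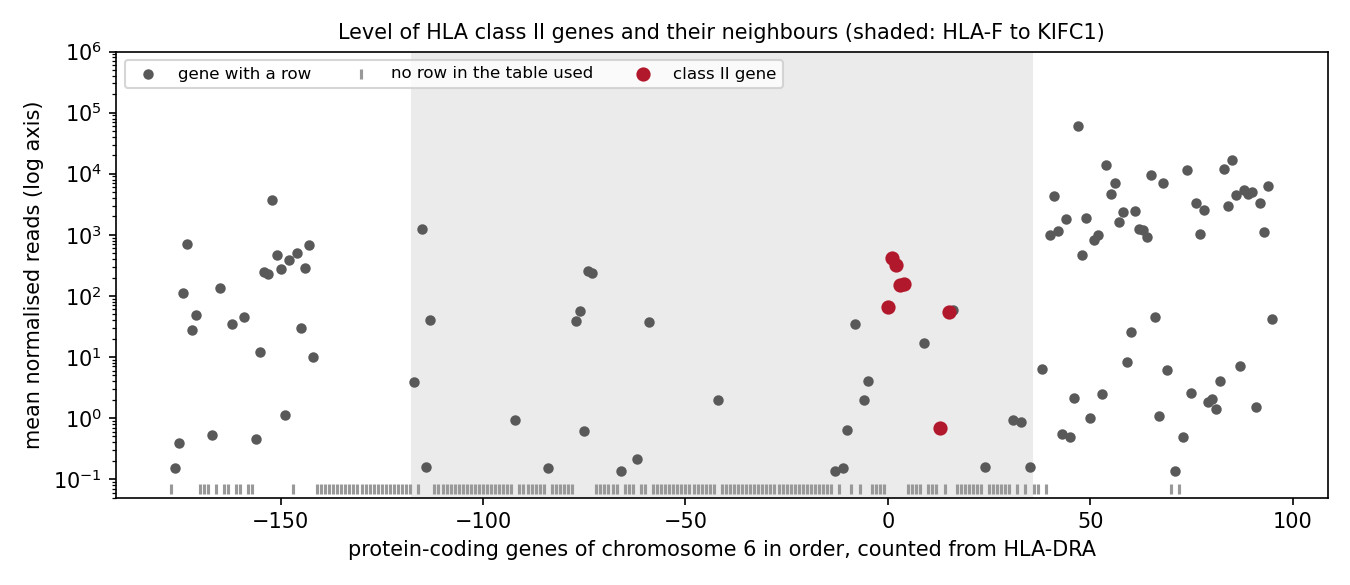
Mean normalised reads over both conditions (vertical log axis) of protein-coding genes of chromosome 6 in their order, counted from HLA-DRA, with class II genes in red, other genes in dark grey and genes with no row as ticks at the bottom. Within the shaded stretch from HLA-F to KIFC1 most genes have no row and 1 has a mean of at least 1000, while many genes on its right side lie above 1000.

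The wider class II pathway was read from 47 genes listed by role, of which 39 had a row, and of these the authors' deposited table calls 3 higher and 3 lower in condition A, where 2.54% of all rows and 6.04% of rows with a mean of at least 50 were called. Over the 35 with a mean of at least 10 the log2 ratio had a median of 0.0082. Of 10 other class II genes and pseudogenes only HLA-DRB5 and HLA-DRB6 had a row, and HLA-DRB6 was at 1.64 and 0.62. None of the 7 promoter factors was called at an adjusted p of 0.05. At an unadjusted p of 0.05, RFX5 and NFYC would pass. RFX5, the DNA-binding subunit of the RFX complex, had means of 10880.2 and 8735 (log2 ratio 0.32, adjusted p = 0.14 by DESeq in the authors' deposited table). CREB1, which binds beside it, had 3841 and 3686 (log2 ratio 0.060), and NFYC, a subunit of the Y box factor NF-Y, 3973 and 2812 (0.50, DESeq adjusted p = 0.249). A limma test of the recovered reads called NFYC with an adjusted p of 0.0348, and NFYC lost this call without A2 (0.09), B2 (0.14) or B3 (0.142).

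Among 10 regulators of CIITA, PRDM1, IRF4 and BACH2 were higher in condition A and 0 were lower. PRDM1, which encodes Blimp-1, a repressor of CIITA in plasma cells, held 742, 766 and 907 normalised reads in condition A and 502, 439.8 and 439 in condition B. The groups lay well apart, with a log2 ratio of 0.81 and an implied SE of 0.14 (adjusted p = 1.12e-06 by DESeq in the authors' deposited table). BACH2, a repressor that holds back plasma cell differentiation, held 2177, 2394 and 2709 against 1652, 1954 and 1847 (log2 ratio 0.42, DESeq adjusted p = 0.0486). IRF4 had means of 29044 and 21794.5 (log2 ratio 0.41, adjusted p = 0.0276 by DESeq in the authors' deposited table). PAX5, the B cell identity factor, had 35652 and 35450.2, and IRF8 15410.2 and 12585 (0.29, DESeq adjusted p = 0.206). Whether any of these genes bears on CIITA in these samples was not tested.

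Among 11 genes of endosomal processing, CTSS and CTSH were lower in condition A and 0 were higher. CTSS, cathepsin S, the protease that trims the invariant chain in B cells, held 4037, 3635 and 3050.5 normalised reads in condition A and 4511, 4917 and 5146 in condition B. The groups did not overlap, and the log2 ratio was -0.44 with an implied SE of 0.13 (adjusted p = 0.0272 by DESeq in the authors' deposited table). CTSH, cathepsin H, an aminopeptidase of the endosome, held 5088, 5920 and 5921 against 10454, 9223 and 8748. It had the largest decrease of the list, a log2 ratio of -0.75 with an implied SE of 0.11 (adjusted p = 1.89e-08 by DESeq in the authors' deposited table). The proteases CTSZ (-0.025) and TPP1 (0.21) were not called. Of the same 11 genes, which are not all proteases, CTSL1 (2.24 and 0), LGMN (0.93 and 0.32) and CST3 (0.6 and 0.32) had means close to 0.

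Among 9 genes of turnover and trafficking, CD63 was lower in condition A and 0 were higher. CD63, a tetraspanin of the late endosomal compartment where class II molecules load, held 1278, 1173 and 1099.7 normalised reads in condition A and 1746, 1675 and 1769 in condition B. Its groups lay apart, with a log2 ratio of -0.55 (adjusted p = 0.00138 by DESeq in the authors' deposited table). The ubiquitin ligase MARCH1, which removes class II molecules from the surface, had means of 136 and 180 (log2 ratio -0.40, DESeq adjusted p = 0.774). AP2M1, of the endocytic adaptor, and CD82, another tetraspanin, had log2 ratios of 0.26 and 0.22 and were not called. A limma test called PRDM1, CTSH and CD63 with any 1 library left out, while CTSS lost its call there without A2, B2 or B3 (0.0972, 0.115 and 0.125), and BACH2 without these (0.117, 0.0778 and 0.109) or B1 (0.0792).

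**Figure D4:**
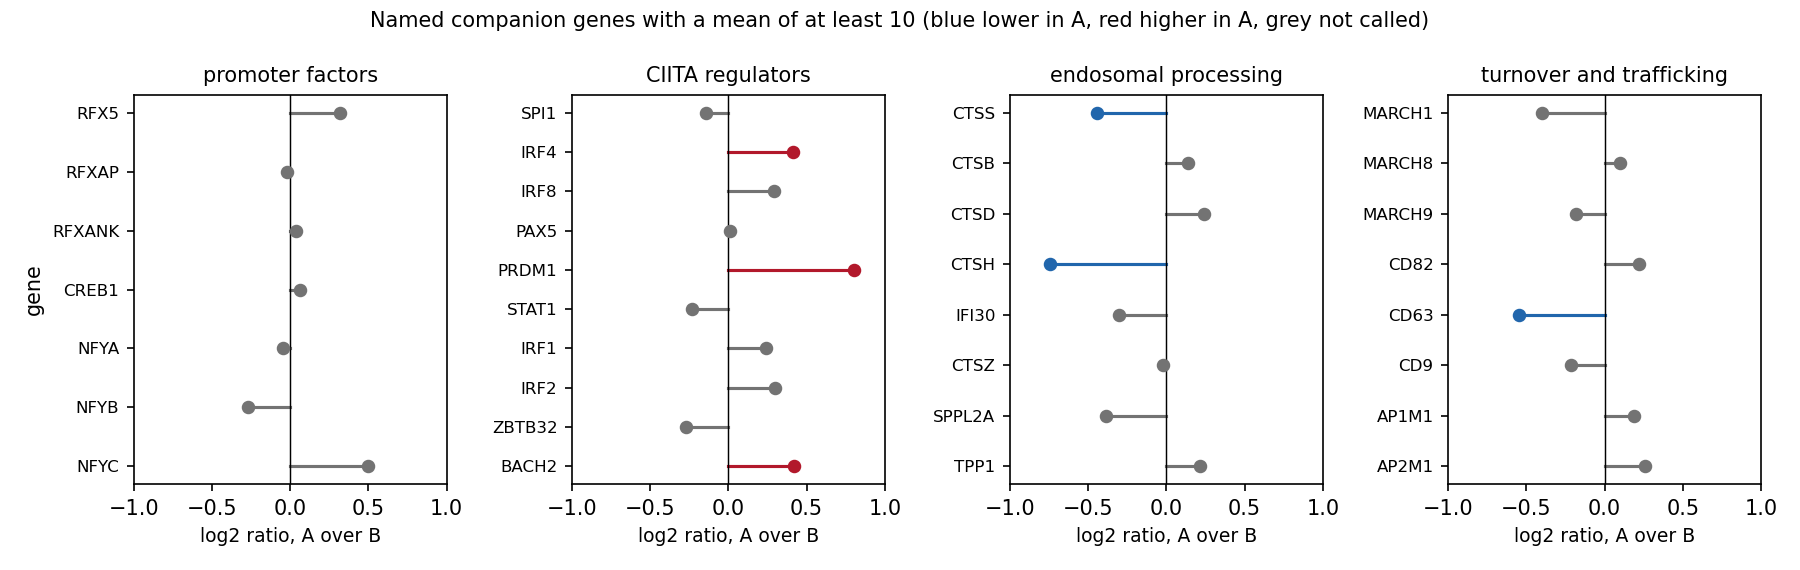
Log2 ratio of condition A over condition B (horizontal axis) of the pathway genes reported by name that had a mean of at least 10, grouped as promoter factors, regulators of CIITA, endosomal processing and turnover and trafficking, with lines from 0 to each value. PRDM1 (0.81), BACH2 (0.42) and IRF4 (0.41) are marked red as called higher in condition A, and CTSH (-0.75), CD63 (-0.55) and CTSS (-0.44) blue as called lower.

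The genes whose profile over the 6 recovered libraries was most like that of the DQ genes were found by the root mean square distance between log2 profiles, each centred on its own mean, among 9470 genes with a symbol and a mean of at least 100. For HLA-DQA1 they were FAM69B at a distance of 0.065, LPAR5, INPP5J, GBGT1 and RHOC, with log2 ratios from -0.73 to -0.60. For HLA-DQB1 they were the row named hsa-mir-1199 at 0.076, LMTK3, IRAK2, GNAZ and RHOC, with log2 ratios from -0.68 to -0.56. HLA-DQA1 and HLA-DQB1 lay 0.14 from each other, which placed HLA-DQB1 at rank 17 among the genes nearest to HLA-DQA1 and HLA-DQA1 at rank 12 among those nearest to HLA-DQB1.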

How the data were processed

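The submitters' processing notes name the build hg19 and the authors' tools STAR, DESeq 1.14.0 and HTSeq 0.5.4p5. What each tool did, which annotation was used and whether strand was used in counting is not given. Per the file headers, the deposited table gives per gene a mean over both conditions and per condition (a signal in normalised reads), the authors' fold (a ratio of B to A), its log2 and a p-value, raw and adjusted; the latter equalled the Benjamini-Hochberg adjustment over all rows. The log2 ratio is printed with its sign turned. A deposited hg19 track lists coding intervals with a score, of which only the positions were used, with 1-based ends. Columns of per-sample values left out: 0.

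The design assumed this form of the table. Standard errors are the log2 ratio divided by the z value of the p-value, an approximation that fails for p near 1. Intervals cover 95%. Since a mean weights the whole reads of 3 libraries by constants, these reads were recovered by integer search. Of 33765 rows of condition A 33728 gave 1 solution, and 33848 of 33848 of condition B. Above a mean of 1500 each library had to lie at 0.7 to 1.4 times the mean. On simulated means 97.4% (A) and 97.6% (B) were recovered, with 3 and 0 wrong. Size factors were 1.21, 1.03 and 0.768 (A) and 1.09, 1.05 and 0.951 (B), and the recovered reads came to 18127685 to 28147570 per library, which is part of the depth. limma 3.58.1 in R 4.3.3 (trend, pseudocount 1) was tested on simulated data of 16629 genes. It found 81% of 100 genes changed by 0.75 and 99% of 100 changed by 1.5 on the log2 scale. There were 8 false calls among 16429 unchanged genes. The simulation gave all genes the same relative spread beyond counting error and no library that stood apart, unlike A3 and B1. These rates therefore need not hold for the genes described here.

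Genes were matched by the table's symbol, else by the identifier that the reference pairs with it. All members are named, and of the pathway list those called and the 3 highest of each role, with a few others named after their values were seen. Some listed genes are not reported here by name. The members, lists and tests were chosen with earlier results of these data known. A permutation of 3 against 3 libraries cannot go below p = 0.1, so none is given.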

Additional observations from a re-analysis of the deposited data

How the results depend on the processing

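HLA-DQA1 and HLA-DQB1 remained the 2 class II genes called when p was adjusted over rows with a mean of at least 10 or of at least 100, and in limma with a pseudocount of 0.5, 1 or 5, without a filter, or without A3 and B1. limma tested 6 class II and 30 pathway genes, without CD74 and IRF4, and called 2 and 6 with all libraries. With 1 library left out it called 0 to 2 class II genes (without A1 these were HLA-DQA1 and HLA-DRA) and 3 to 9 pathway genes, while it called 2.21% to 13.1% of all rows. Without A3 and B1, chosen after the data were seen, it called 15 pathway genes and 25.6% of all rows. With 1 library left out, the log2 ratios of the condition means stayed below 0 for HLA-DQA1 (-0.96 to -0.67), HLA-DQB1 (-0.94 to -0.52), HLA-DRA (-0.64 to -0.43) and HLA-DRB1 (-0.52 to -0.26). They crossed 0 for HLA-DMA (-0.54 to 0.19) and CIITA (-0.02 to 0.14), neither of which was called. CIITA stood at 0.21 when centred on the other genes from HLA-F to KIFC1 and at -0.066 without A3 and B1, and the cause was not tested. The share of the group's reads was 97.2% (A) and 96.2% (B) for CD74, 2.35% and 3.05% for CIITA and 0.406% and 0.796% for the HLA genes, and per coding kilobase 98.8% and 98.1%, 0.678% and 0.883%, and 0.496% and 0.979%, since CIITA has the longest coding sequence. Each symbol had 1 identifier, so summing identifiers changed nothing. No paired analysis was possible because the recovered libraries carry no replicate number of the labels. HLA-DMB had too few reads for a ratio, and CD74 could not be refitted. Counting error bears most on HLA-DMB (0 to 3 reads per library), and the reads of HLA-DRA and HLA-DMA, 35 to 90 per library, are the next lowest.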
